A study of Mus musculus with 24 samples.

Results

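Inhibitory and paired immune receptors are cell surface proteins that set the threshold at which a B cell responds to its antigen receptor. The inhibitory ones carry tyrosine motifs (ITIMs) in their cytoplasmic tails, which are phosphorylated by kinases such as Lyn and then recruit phosphatases such as SHP-1 to the receptor complex. Paired receptors are close relatives with opposing tails, of which the activating member signals through an ITAM motif or an ITAM adaptor. PU.1 (encoded by Spi1) and SpiB (encoded by Spib) are related Ets family transcription factors of B cells that recognise purine-rich DNA with a GGAA core.

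Of the 27179 genes counted, 10 were followed here. They were found by their symbols in the deposited count tables, and the list was made knowing that Nfam1, Pirb and Lilrb4 were lower in PU.1 cKO cells. For these 3 genes the comparisons that involve the loss of PU.1 are therefore descriptions without a test, while the other 7 genes were tested. RNA was sequenced from C57BL/6 mouse lymph node B cells, sorted as CD3- B220+ CD138-, in 24 libraries, a pair for every combination of 4 genotypes and 3 stages. Control cells were Cd23T/+ and carried the Cd23-Cre transgene with intact Spi1 and Spib. PU.1 cKO cells were Spi1fl/fl Cd23T/+, SpiB KO cells were Spi1fl/fl Cd23+/+ Spib-/- and had no Cre, and PU.1 SpiB DKO cells were Spi1fl/fl Cd23T/+ Spib-/-. Cells were taken naive, or after 48 h of culture in either CD40L + IL-4 or LPS + IL-4. Cre driven by Cd23 acts in mature B cells, and the study describes incomplete loss of the floxed Spi1 exon in naive PU.1 SpiB DKO cells. It reports complete loss of that exon after CD40L + IL-4 and a similarly efficient loss after LPS + IL-4. The study's methods give one range of ages for all mice, which were matched for age within an experiment, and the labels tie no age to a library. The labels do not say whether the 2 libraries of a group came from separate mice, so p-values measure the spread between these libraries.

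Total counts were 14231188 to 18194629 in naive libraries, 9598674 to 61640683 in CD40L + IL-4 and 22757630 to 73658850 in LPS + IL-4, and the deepest CD40L + IL-4 library was replicate 2 of PU.1 cKO. Whole-gene Spi1 counts, which do not separate the floxed exon, were lower in both PU.1 cKO libraries than in both control libraries at every stage. In naive PU.1 SpiB DKO cells Spi1 was at 103 and 110.1 CPM, against 155 and 174 CPM in control cells and 59.5 and 53.2 CPM in PU.1 cKO cells. After CD40L + IL-4 Spi1 was at 32.5 and 25.6 CPM in PU.1 SpiB DKO cells, 46.9 and 35.1 CPM in PU.1 cKO cells and 84.8 and 107.8 CPM in control cells. In the LPS + IL-4 culture Spi1 was at 63.9 and 58.8 CPM in PU.1 SpiB DKO cells, which overlapped the control cells at 72.0 and 60.7 CPM, and at 44.2 and 41.2 CPM in PU.1 cKO cells. These whole-gene levels do not show how much of the floxed exon was left. Spib was at 9.05 to 100.3 CPM in the 12 libraries of Spib-/- cells and at 178 CPM or more in the other 12. Of 10 B cell marker genes, 9 were in the tables, none of them at 0 in any group, and their summed level was 13490.3 to 13659 CPM in naive control cells and 9078 to 9997 CPM in naive PU.1 SpiB DKO cells, where 3 of the 9 were DE and lower. Levels are in CPM, library-size-scaled counts with edgeR's TMM factors of a stage. Differentially expressed (DE) genes had an edgeR quasi-likelihood adjusted p under 0.15 over all genes of the stage, changed by more than 1.5-fold and had a deposited log2 RPKM above 0 on average. In bulk RNA, fewer cells of a type and less RNA per cell cannot be told apart. The 3 mutants of a stage were compared with the same pair of control libraries.

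The 10 genes are spread over the genome (GRCm38), with 4 of them on chromosome 7. Pirb (Entrez ID 18733) lies at chr7:3712505-3720382 and Lair1 (52855) at chr7:4007073-4073567, both within the leukocyte receptor complex. Cd22 (12483) lies at chr7:30865404-30880342 and Siglecg (243958) at chr7:43408192-43418349, the latter 1.11 Mb from Spib. Nfam1 (74039) lies at chr15:82996736-83033397, Lilrb4 (14728, Lilrb4a in RefSeq) at chr10:51490898-51496613 and Cd72 (12517) at chr4:43447724-43455102. Cd5 (12507) lies at chr19:10718107-10739026, Pecam1 (18613) at chr11:106654213-106715281 and Btla (208154) at chr16:45223705-45252895. Exons of Cd72 overlap those of Tesk1 on the other strand, and exons of Cd22 and Lilrb4 overlap those of antisense genes. No source used here says that the counting used strand, so reads in these overlaps are uncertain. Exons of Lilrb4 also overlap those of a protein-coding gene on the same strand, where reads are uncertain even if strand was used. Lilrb4 also shares much of its sequence with Gp49a, and Pirb with the Pira genes, which makes the split of reads between them uncertain.

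RefSeq promoters were at hand for 8 of the 10 genes, and the 250 bases before the start are shown for 5 of them (GRCm38.p6, 5′ to 3′ on the strand of the gene). Nfam1 and Pirb are shown as genes chosen for their low level in PU.1 cKO cells, Siglecg for its fall in PU.1 SpiB DKO, and Cd72 and Btla for genotype effects that differed between stages. Capitals mark GAGGAA, a purine-rich form of the Ets core, or its reverse complement. The windows are chr15:83033398-83033647 (minus strand) for the first of 3 Nfam1 starts, chr7:3720383-3720632 (minus) for Pirb, chr7:43407989-43408238 (plus) for the first of 2 Siglecg starts, chr4:43454627-43454876 (minus) for Cd72 and chr16:45224087-45224336 (plus) for Btla. The starts used for Siglecg, Cd72, Btla, Lair1, Cd22 and Cd5, and the other Nfam1 starts, lie inside the gene positions given above. Distances below are counted from these starts and not from the outer end of the gene.
Nfam1: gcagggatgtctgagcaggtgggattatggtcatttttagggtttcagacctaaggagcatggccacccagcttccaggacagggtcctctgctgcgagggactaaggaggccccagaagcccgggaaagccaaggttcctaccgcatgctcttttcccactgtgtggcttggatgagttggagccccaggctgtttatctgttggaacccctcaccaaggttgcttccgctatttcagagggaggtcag
Pirb: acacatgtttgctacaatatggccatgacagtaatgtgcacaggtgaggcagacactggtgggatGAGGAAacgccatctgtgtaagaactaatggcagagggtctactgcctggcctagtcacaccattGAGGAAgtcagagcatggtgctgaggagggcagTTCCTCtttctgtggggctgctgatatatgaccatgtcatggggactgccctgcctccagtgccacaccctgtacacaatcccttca
Siglecg: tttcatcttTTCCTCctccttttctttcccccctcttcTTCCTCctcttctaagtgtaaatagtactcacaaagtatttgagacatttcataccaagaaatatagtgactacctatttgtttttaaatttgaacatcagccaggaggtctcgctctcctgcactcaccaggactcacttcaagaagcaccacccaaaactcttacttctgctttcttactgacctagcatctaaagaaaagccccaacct
Cd72: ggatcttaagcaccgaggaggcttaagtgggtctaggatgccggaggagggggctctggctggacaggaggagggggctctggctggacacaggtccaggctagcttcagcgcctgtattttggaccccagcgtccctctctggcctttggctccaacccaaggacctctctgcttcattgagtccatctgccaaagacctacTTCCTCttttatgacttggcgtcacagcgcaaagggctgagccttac
Btla: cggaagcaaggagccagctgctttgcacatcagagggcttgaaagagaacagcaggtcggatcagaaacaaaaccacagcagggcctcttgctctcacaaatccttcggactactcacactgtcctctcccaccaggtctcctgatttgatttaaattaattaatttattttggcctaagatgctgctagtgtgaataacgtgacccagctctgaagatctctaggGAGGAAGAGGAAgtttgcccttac

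GAGGAA was found on either strand in 23.3% of 32851 windows of this length over 27025 genes, and the longer GAGGAAGT, which contains it, in 2.44%. Pirb held 3 GAGGAA matches, starting 185, 120 and 87 bases before the start. The first Siglecg start held 2, at 241 and 212 bases, and the second none. Cd72 held 1 at 47 bases. Btla held 2 adjacent matches, at 24 and 18 bases. Lair1 and Cd5 each held 1, at 26 and 53 bases, and the windows of Cd22 and of all 3 Nfam1 starts held none. GAGGAAGT occurred once each in Pirb, Cd72, Cd5 and Btla. These matches describe the letters of the windows and not binding.

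In control cells the receptors differed widely in level per transcript length. By the deposited log2 RPKM, naive cells had most Btla (7.58 and 7.83), Cd72 (7.52 and 7.58) and Cd22 (6.99 and 7.75), and these 3 genes overlapped one another in order. Siglecg (6.06 and 6.29), Pecam1 (5.62 and 5.92) and Nfam1 (4.23 and 4.30) followed without overlap. Pirb (2.68 and 2.77) and Lair1 (2.78 and 1.43) overlapped, and Cd5 (0.070 and -0.72) and Lilrb4 (-1.01 and -0.52) were lowest and overlapped as well. After CD40L + IL-4, Cd22 was highest (7.64 and 7.65) and Lair1 lowest (-3.36 and -2.57). After LPS + IL-4, Cd22 was again highest (6.74 and 6.29) and Cd5 lowest (-2.17 and -2.47).

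**Figure D1:**
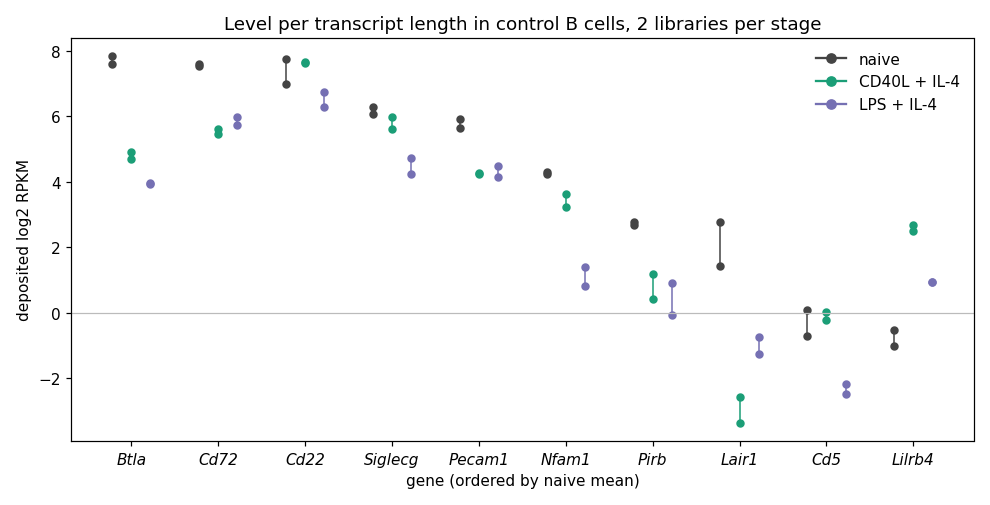
Deposited log2 RPKM of each receptor gene in the 2 control libraries of each stage, joined by a line, with genes ordered by their naive mean. Btla ran from 7.58 and 7.83 in naive cells to 3.95 and 3.94 after LPS + IL-4, while Lilrb4 was higher in both cultures than in naive cells.

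Culture lowered most of these receptors in control cells. The stage comparison used a single fit of all 24 libraries, and its CPM are scaled over all of them. The CD40L + IL-4 libraries were deposited in a count table of their own, so for comparisons with them the stage and the table cannot be told apart, while naive and LPS + IL-4 libraries share a table. Of the 10 genes, 7 were DE after CD40L + IL-4, 1 higher and 6 lower, against 39.3% of all genes tested (19.9% higher and 19.4% lower). After LPS + IL-4, 9 were DE, 1 higher and 8 lower, against 53.6% of all genes (27.9% higher and 25.7% lower). The median log2 fold change of the 10 genes was -1.16 and -1.97, beside 0 and 0.0064 over all genes.

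Btla, the receptor for the tumour necrosis factor receptor family member HVEM, fell most among the genes with high levels. It was at 671 and 759 CPM in naive control cells, 88.3 and 96.0 CPM after CD40L + IL-4 and 47.4 and 48.8 CPM after LPS + IL-4. The log2 fold changes were -2.96 (edgeR adjusted p = 1.64e-09) and -3.89 (edgeR adjusted p = 2.75e-11). Lair1, a collagen receptor, was at 23.4 and 8.92 CPM in naive cells and at 1.72 CPM or less in every cultured control library. Cd72, an inhibitory receptor for semaphorin 4D, fell by 2.02 on the log2 scale after CD40L + IL-4 (edgeR adjusted p = 3.61e-08) and had a log2 fold change of -1.79 after LPS + IL-4 (edgeR adjusted p = 5.98e-08). Pecam1, a homophilic adhesion molecule with ITIMs, fell as well, with log2 fold changes of -1.53 and -1.55 (edgeR adjusted p = 3.34e-05 and 1.33e-05).

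Lilrb4 was the single member that rose. Its product binds integrin and other ligands and carries ITIMs. It was at 0.609 and 0.818 CPM in naive control cells, 8.30 and 9.63 CPM after CD40L + IL-4 and 2.49 and 2.28 CPM after LPS + IL-4, with no overlap between stages. Nfam1, an ITAM-bearing receptor that activates NFAT, fell by 0.79 on the log2 scale after CD40L + IL-4, a call that was lost without control replicate 1 of that culture (-0.62, edgeR adjusted p = 0.213). It fell by 3.28 after LPS + IL-4, from 51.2 and 54.6 CPM to 6.84 and 4.23 CPM.

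Between the cultures, 5 genes were DE and all 5 were lower after LPS + IL-4 than after CD40L + IL-4, against 34% of all genes DE in either direction, 18.3% higher and 15.7% lower. They were Nfam1, Lilrb4, Cd22, Siglecg and Btla. Cd22 and Siglecg encode sialic acid-binding lectins (Siglecs) that restrain antigen receptor signalling. Cd22 stood at 815 and 833 CPM after CD40L + IL-4 and 429 and 344 CPM after LPS + IL-4 (log2 fold change -1.09, edgeR adjusted p = 0.000761). Siglecg stood at 125 and 150.3 CPM and at 61.4 and 45.9 CPM (-1.36, edgeR adjusted p = 5.55e-06).

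Nfam1, Pirb and Lilrb4 had been chosen by their values in PU.1 cKO cells, and are described here without a test. In naive cells Nfam1 was at 47.1 and 52.2 CPM in control cells, 4.97 and 5.18 CPM in PU.1 cKO cells, 40.8 and 31.3 CPM in SpiB KO cells and 26.4 and 26.2 CPM in PU.1 SpiB DKO cells. After CD40L + IL-4 it was at 27.6 and 35.2 CPM in control cells, 0.501 and 0.296 CPM in PU.1 cKO cells, 18.8 and 13.3 CPM in SpiB KO cells and 1.19 and 1.91 CPM in PU.1 SpiB DKO cells. After LPS + IL-4 it was at 7.13 and 4.28 CPM in control cells and 3.77 and 2.66 CPM in SpiB KO cells, and at 0.324 and 0 CPM in PU.1 cKO cells and 0.722 and 0.732 CPM in PU.1 SpiB DKO cells. At each stage both PU.1 cKO libraries were the lowest of the 8. For PU.1 cKO the log2 fold change of Nfam1 was -3.29 in naive cells, -6.51 after CD40L + IL-4 and -4.77 after LPS + IL-4, against -0.92, -4.32 and -2.95 in PU.1 SpiB DKO. Without PU.1 cKO replicate 2, the deepest library of that culture, the value for Nfam1 after CD40L + IL-4 was -5.92.

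Pirb encodes PIR-B, an ITIM-bearing receptor for class I MHC molecules. In naive cells it was at 15.3 and 17.3 CPM in control cells, 4.07 and 4.48 CPM in PU.1 cKO cells, 10.8 and 12.4 CPM in SpiB KO cells and 9.90 and 7.74 CPM in PU.1 SpiB DKO cells. After CD40L + IL-4 it was at 3.95 and 6.92 CPM in control cells and 5.22 and 2.95 CPM in SpiB KO cells, and at 0.200 to 0.647 CPM in the 4 libraries of both mutants with floxed Spi1 and Cre. After LPS + IL-4 it was at 4.97 and 2.19 CPM in control cells, 3.31 and 3.33 CPM in SpiB KO cells and 0.111 to 0.373 CPM in the 4 libraries of both mutants with floxed Spi1 and Cre, which overlapped. For PU.1 cKO the log2 fold change of Pirb was -1.92, -4.27 and -3.83 over the 3 stages, and in PU.1 SpiB DKO -0.88, -3.39 and -3.37.

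Lilrb4 separated the PU.1 cKO from the PU.1 SpiB DKO cells. After CD40L + IL-4 it was at 8.60 and 9.85 CPM in control cells, 0.301 and 0.378 CPM in PU.1 cKO cells, 8.18 and 5.11 CPM in SpiB KO cells and 4.64 and 7.53 CPM in PU.1 SpiB DKO cells. After LPS + IL-4 it was at 2.59 and 2.30 CPM in control cells, 0.580 and 0.583 CPM in PU.1 cKO cells, 3.08 and 3.29 CPM in SpiB KO cells and 1.12 and 1.97 CPM in PU.1 SpiB DKO cells. In both cultures the PU.1 SpiB DKO libraries lay between those of PU.1 cKO and control without overlap. In naive cells it was at 0.0637 and 0.0631 CPM in PU.1 cKO and at 0.238 to 0.782 CPM in the other 6 libraries. There 2 counts in PU.1 cKO stood against 19 in control, a ratio of 0.0973 with an exact 95% interval of 0.0110 to 0.403 that covers counting error only. The log2 fold change of Lilrb4 in PU.1 SpiB DKO after LPS + IL-4 was -0.67, with -0.30 and -1.13 when its replicate 1 or 2 was left out. The paralog Gp49a had 0 counts in both PU.1 cKO libraries after CD40L + IL-4 and 13 and 5 counts in control.

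Macrophages and monocytes also express these 3 genes, so their markers were examined in the same libraries. After CD40L + IL-4 the summed level of 13 marker genes was 45.4 to 60.1 CPM in control cells, 9.14 to 11.3 CPM in PU.1 cKO cells, 41.4 to 60.0 CPM in SpiB KO cells and 8.96 to 12.9 CPM in PU.1 SpiB DKO cells. Of the 13, 7 were at 0 in both control libraries, among them Csf1r, Lyz2, Cd14 and C1qa. Emr1 alone made 27.7 and 42.1 CPM of the control sums. After LPS + IL-4 the sums were 13.3 to 20.1 CPM in control cells, 4.52 to 7.16 CPM in PU.1 cKO cells, 22.9 to 24.7 CPM in SpiB KO cells and 7.98 to 8.86 CPM in PU.1 SpiB DKO cells. In naive cells they were 24.7 to 49.9 CPM in control cells, 25.2 to 35.7 CPM in PU.1 cKO cells, 86.6 to 104 CPM in SpiB KO cells and 107 to 128 CPM in PU.1 SpiB DKO cells. The part of these cells in the values of Nfam1, Pirb and Lilrb4 was not tested.

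**Figure D2:**
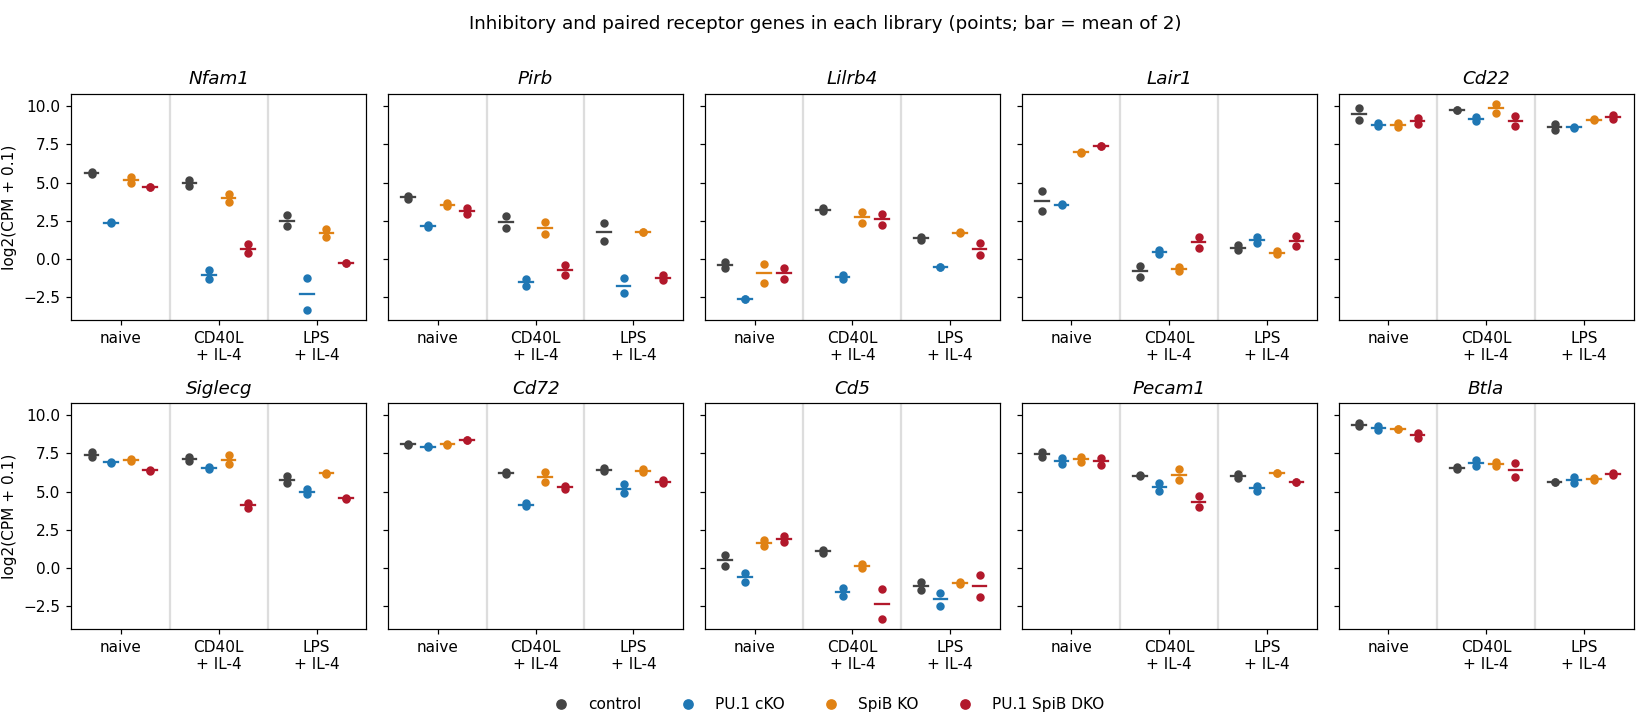
Level of each receptor gene in each library as log2(CPM + 0.1), by stage and genotype, with a bar at the mean of 2 libraries. Nfam1 was lowest in PU.1 cKO at every stage and Pirb in naive cells and CD40L + IL-4, Lair1 was high in naive SpiB KO and PU.1 SpiB DKO cells, and Siglecg was lowest in PU.1 SpiB DKO.

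Siglecg had the largest fall in PU.1 SpiB DKO among the DE genes of the 7 that were tested. After CD40L + IL-4 it was at 129 and 154 CPM in control cells, 98.7 and 90.6 CPM in PU.1 cKO cells, 169 and 111 CPM in SpiB KO cells and 15.4 and 19.1 CPM in PU.1 SpiB DKO cells. Both PU.1 SpiB DKO libraries lay far below the other 6. The log2 fold change in PU.1 SpiB DKO was -3.03 against control (SE 0.23, edgeR adjusted p = 1.69e-05) and -2.45 against PU.1 cKO (SE 0.23, edgeR adjusted p = 0.000186). In SpiB KO the log2 fold change of Siglecg was -0.02 (SE 0.21, edgeR adjusted p = 1). The interaction for Siglecg, by which the double mutant departed from the added effects of both single mutants, was -2.43 (SE 0.30, edgeR adjusted p = 0.00543).

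In naive cells Siglecg was at 157 and 190 CPM in control cells, 118 and 123 CPM in PU.1 cKO cells, 140.3 and 127 CPM in SpiB KO cells and 84.2 and 83.1 CPM in PU.1 SpiB DKO cells. It fell in PU.1 SpiB DKO by 1.05 on the log2 scale (SE 0.12, edgeR adjusted p = 0.000348). After LPS + IL-4 it was at 64.0 and 46.4 CPM in control cells, 35.6 and 28.1 CPM in PU.1 cKO cells, 75.7 and 71.8 CPM in SpiB KO cells and 22.9 and 24.4 CPM in PU.1 SpiB DKO cells. It fell in PU.1 SpiB DKO by 1.22 (SE 0.16, edgeR adjusted p = 0.000504). In PU.1 cKO it fell by 0.79 (SE 0.16, edgeR adjusted p = 0.0108). The latter fell short of a 1.5-fold change without control replicate 1 (-0.54).

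Cd72 fell in PU.1 cKO and in PU.1 SpiB DKO in both cultures and was not DE in naive cells. Naive levels were 272 and 278 CPM in control cells, 240 and 256 CPM in PU.1 cKO cells, 275 and 270 CPM in SpiB KO cells and 336 and 328 CPM in PU.1 SpiB DKO cells. After CD40L + IL-4 they were 71.4 and 77.4 CPM in control cells, 16.5 and 18.8 CPM in PU.1 cKO cells, 79.8 and 48.7 CPM in SpiB KO cells and 42.3 and 36.1 CPM in PU.1 SpiB DKO cells. Cd72 fell by 2.06 in PU.1 cKO (SE 0.22, edgeR adjusted p = 0.000254). It fell less in PU.1 SpiB DKO, with a log2 fold change of -0.93 (SE 0.22, edgeR adjusted p = 0.0185). Cd72 rose from PU.1 cKO to PU.1 SpiB DKO by 1.14 (SE 0.22, edgeR adjusted p = 0.0302), a call lost without PU.1 cKO replicate 1 (1.04, edgeR adjusted p = 0.171). After LPS + IL-4 Cd72 was at 94.0 and 80.8 CPM in control cells, 44.5 and 30.5 CPM in PU.1 cKO cells, 78.7 and 88.4 CPM in SpiB KO cells and 47.0 and 53.6 CPM in PU.1 SpiB DKO cells. It fell by 1.21 in PU.1 cKO (SE 0.16, edgeR adjusted p = 0.00136). It also fell in PU.1 SpiB DKO, with a log2 fold change of -0.80 (SE 0.16, edgeR adjusted p = 0.0052).

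Pecam1 was not DE in any mutant of the naive stage, where its 8 libraries ranged from 107 to 196 CPM. After CD40L + IL-4 it was at 68.7 and 64.3 CPM in control cells, 47.5 and 33.1 CPM in PU.1 cKO cells, 88.6 and 54.0 CPM in SpiB KO cells and 26.1 and 15.7 CPM in PU.1 SpiB DKO cells. It fell by 1.67 in PU.1 SpiB DKO (SE 0.29, edgeR adjusted p = 0.00355). The fall of 0.74 in PU.1 cKO (edgeR adjusted p = 0.139) was lost without either control library or without PU.1 cKO replicate 2 (-0.78 to -0.47). After LPS + IL-4 Pecam1 was at 72.9 and 58.3 CPM in control cells, 41.9 and 33.7 CPM in PU.1 cKO cells, 75.3 and 73.4 CPM in SpiB KO cells and 50.5 and 48.5 CPM in PU.1 SpiB DKO cells. It fell in PU.1 cKO by 0.79 (SE 0.13, edgeR adjusted p = 0.00384).

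Cd22 fell in PU.1 SpiB DKO in one culture and rose in the other. After CD40L + IL-4 it was at 844 and 852 CPM in control cells, 620 and 515 CPM in PU.1 cKO cells, 1126 and 754 CPM in SpiB KO cells and 646 and 423 CPM in PU.1 SpiB DKO cells, and in the last it fell by 0.67 (edgeR adjusted p = 0.0882). This call was lost without PU.1 SpiB DKO replicate 2 (-0.38) and without either control library. After LPS + IL-4 it was at 678 and 579 CPM in PU.1 SpiB DKO cells, 448 and 348 CPM in control cells, 397 and 378 CPM in PU.1 cKO cells and 569 and 543 CPM in SpiB KO cells. It rose in PU.1 SpiB DKO by 0.66 against control (SE 0.12, edgeR adjusted p = 0.0034), a call lost without control replicate 2 (0.49) or PU.1 SpiB DKO replicate 1 (0.54), below a 1.5-fold change. In naive cells Cd22 was at 537 and 937 CPM in control cells, 411 and 468 CPM in PU.1 cKO cells, 399 and 482 CPM in SpiB KO cells and 453 and 590 CPM in PU.1 SpiB DKO cells. It was DE in both single mutants at -0.74 (edgeR adjusted p = 0.0962 and 0.11), and without control replicate 2 the fold changes were -0.29 in each and no longer DE. The calls were also lost without any one of the mutant libraries compared (-0.89 to -0.61).

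Btla was at 617 and 726 CPM in naive control cells, 534 and 615 CPM in PU.1 cKO cells, 545 and 558 CPM in SpiB KO cells and 371 and 461 CPM in PU.1 SpiB DKO cells. It fell in naive PU.1 SpiB DKO cells by 0.69 (SE 0.14, edgeR adjusted p = 0.00826), and fell short of a 1.5-fold change without PU.1 SpiB DKO replicate 1 (-0.54) and without control replicate 2 (-0.57). After LPS + IL-4 the log2 fold change in PU.1 SpiB DKO was 0.55 (edgeR adjusted p = 0.00654), below a 1.5-fold change. After CD40L + IL-4 its level was 61.4 CPM in PU.1 SpiB DKO replicate 2 and 91.4 to 132 CPM in the other 7 libraries.

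B cell and plasma cell markers moved in the cultures in which Siglecg, Cd72, Pecam1 and Cd22 were DE. After CD40L + IL-4 the 9 B cell markers summed to 6697 to 8529.9 CPM in control cells, 5388 to 5648 CPM in PU.1 cKO cells and 4049.6 to 4858 CPM in PU.1 SpiB DKO cells, with 4 of the 9 DE and lower in PU.1 cKO and 5 of the 9 in PU.1 SpiB DKO. The 6 plasma cell markers summed to 1224 to 1419.8 CPM, 1844 to 2061 CPM and 2339 to 2587 CPM, and 3 of the 6 were DE and higher in PU.1 cKO and 5 in PU.1 SpiB DKO. After LPS + IL-4 the B cell markers summed to 4129 to 4697 CPM in control cells, 3342 to 3641 CPM in PU.1 cKO cells and 3775 to 3817 CPM in PU.1 SpiB DKO cells, where 2 were DE and lower and 1 DE and higher, against 1 lower in PU.1 cKO. The plasma cell markers summed to 661 to 712 CPM, 1189 to 1311 CPM and 1629 to 1634 CPM, and 4 of 5 tested were DE and higher in each mutant. The part of these shifts in the values of the receptors was not tested.

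**Figure D3:**
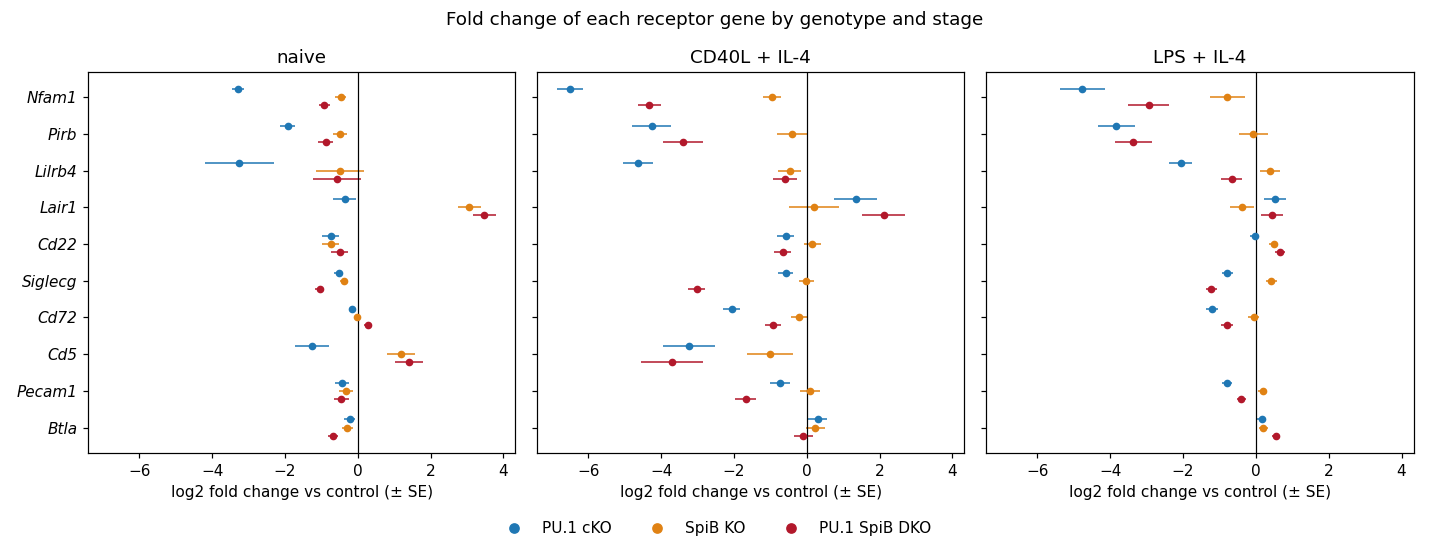
Log2 fold change against control with its standard error for each receptor gene (rows) in PU.1 cKO, SpiB KO and PU.1 SpiB DKO, with a panel for each stage. Siglecg in PU.1 SpiB DKO after CD40L + IL-4 stood at -3.03 and Lair1 in naive SpiB KO at 3.07, and Cd5 after LPS + IL-4 was too low to be tested.

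Lair1 was the single member called DE and higher in a mutant of the naive stage. It was at 21.5 and 8.53 CPM in control cells, 11.8 and 11.6 CPM in PU.1 cKO cells, 122 and 130.1 CPM in SpiB KO cells and 167 and 169 CPM in PU.1 SpiB DKO cells. The log2 fold change was 3.07 in SpiB KO (SE 0.31, edgeR adjusted p = 0.000476) and 3.48 in PU.1 SpiB DKO (SE 0.31, edgeR adjusted p = 0.000109). Lair1 is also expressed by plasmacytoid dendritic cells (pDC), which carry B220, and 10 of 10 pDC marker genes were DE and higher in each of these genotypes. The summed level of the 10 markers was 209 to 337 CPM in control cells, 246 to 262 CPM in PU.1 cKO cells, 1216 to 1545 CPM in SpiB KO cells and 1608 to 1740.4 CPM in PU.1 SpiB DKO cells. Lair1 amounted to 4.09% to 6.38% of that sum in the 4 libraries of control and PU.1 cKO and to 7.89% to 10.7% in the 4 libraries without SpiB. Conventional dendritic cell markers were at a summed 21 to 46.3 CPM in control cells, 25.8 to 27.8 CPM in PU.1 cKO cells, 98.7 to 109 CPM in SpiB KO cells and 129 to 148 CPM in PU.1 SpiB DKO cells. The part of these cells in the result was not tested. In the cultures Lair1 was at 0.351 to 2.67 CPM in all 16 libraries. After CD40L + IL-4 it had 14 and 28 counts in PU.1 SpiB DKO and 4 and 6 in control. The log2 fold change was 2.11 (SE 0.59, edgeR adjusted p = 0.039), at too low a level for a DE call. There pDC markers summed to 44.4 to 47.1 CPM in PU.1 SpiB DKO and 79.1 to 86.2 CPM in control. Conventional dendritic cell markers summed to 13.1 to 13.4 CPM and 6.05 to 9.32 CPM, and the part of these cells was not tested.

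**Figure D4:**
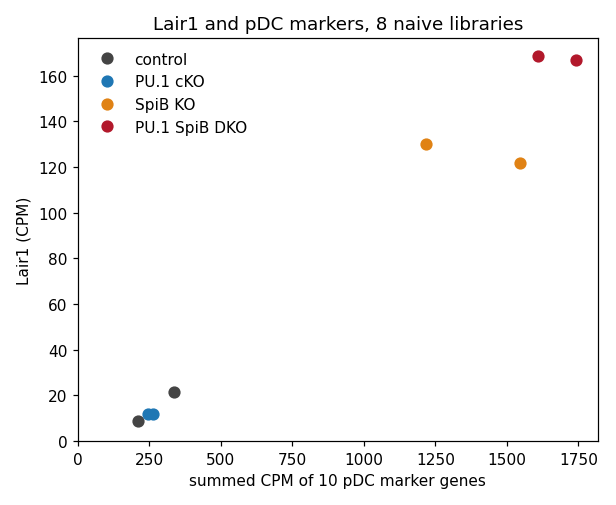
Lair1 (CPM) against the summed CPM of 10 pDC marker genes in the 8 naive libraries, coloured by genotype. The 4 libraries without SpiB lay at 1216 to 1740.4 CPM of marker RNA and 122 to 169 CPM of Lair1, apart from the 4 others.

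Cd5, which dampens antigen receptor signals and marks T cells and B-1a cells, was at low counts throughout. In naive cells it was at 1.75 and 0.995 CPM in control cells, 0.700 and 0.442 CPM in PU.1 cKO cells, 3.57 and 2.70 CPM in SpiB KO cells and 4.24 and 3.11 CPM in PU.1 SpiB DKO cells. The log2 fold change in PU.1 SpiB DKO was 1.41 (edgeR adjusted p = 0.0317), but the mean log2 RPKM was too low for a DE call. T cell markers moved with it, at a summed 316 to 386 CPM in control cells, 253 to 275 CPM in PU.1 cKO cells, 591 to 686 CPM in SpiB KO cells and 714 to 738 CPM in PU.1 SpiB DKO cells, where 4 of 9 tested were DE and higher and 1 was DE and lower. Of 7 markers of B-1a and marginal zone cells, 6 were DE and higher in PU.1 SpiB DKO and 3 in SpiB KO. In PU.1 cKO 3 of them were DE and higher as well, where Cd5 had a log2 fold change of -1.26 (edgeR adjusted p = 0.148). The part of these cells in the level of Cd5 was not tested. After CD40L + IL-4 Cd5 was at 2.19 and 1.89 CPM in control cells, 0.301 and 0.181 CPM in PU.1 cKO cells, 0.887 and 1.13 CPM in SpiB KO cells and 0 and 0.286 CPM in PU.1 SpiB DKO cells. The log2 fold change was -3.24 for PU.1 cKO (SE 0.71, edgeR adjusted p = 0.0168) and -3.70 for PU.1 SpiB DKO (SE 0.86, edgeR adjusted p = 0.0169), again at too low a level for a DE call. T cell markers there summed to 291 to 292 CPM in PU.1 SpiB DKO and 136 to 151 CPM in control. Of the 12 markers, 5 were tested, 2 were DE and higher, and the median log2 fold change was -0.072. Of the 7 B-1a and marginal zone markers 3 were DE and higher in PU.1 SpiB DKO and 1 was DE and lower. The part of these cells was not tested. Cd5 had 43 counts in control and 3 in PU.1 SpiB DKO, a ratio of 0.0732 with an exact 95% interval of 0.0145 to 0.229 for counting error. After LPS + IL-4 it was under the filter and not tested.

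Effects of the mutants also differed between the stages. This was tested in the fit of all 24 libraries, at an edgeR adjusted p under 0.05, for the 7 genes with tests. Naive PU.1 SpiB DKO cells kept part of the floxed Spi1 exon. In their comparison with cultured cells, stage and the degree of that loss cannot be told apart. The effect of PU.1 SpiB DKO differed between CD40L + IL-4 and naive cells for 4 of the 7 (Siglecg, Cd72, Pecam1 and Cd5), beside 9.32% of all genes. It differed between LPS + IL-4 and naive cells for 4 (Cd72, Lair1, Cd22 and Btla), beside 16.8%, and between the cultures for 4 (Siglecg, Pecam1, Cd22 and Cd5), beside 15.2%. The effect of PU.1 cKO differed from that in naive cells for 1 gene, Cd72, in each culture, beside 3.87% after CD40L + IL-4 and 2.2% after LPS + IL-4. The effect of SpiB KO differed between LPS + IL-4 and naive cells for Lair1, beside 1.83%.

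Counts of DE genes among the 10 can now be set beside those of all genes. In PU.1 cKO against control, 3 of 10 genes were DE in naive cells, 4 of 10 after CD40L + IL-4 and 4 of 9 tested after LPS + IL-4, where 8.4%, 9.36% and 6.67% of all genes were DE. In PU.1 SpiB DKO against control, 5 of 10, 5 of 10 and 4 of 9 were DE, beside 14.1%, 13.7% and 13.6% of all genes. The genes that were higher made up 7.39%, 5.84% and 8.76% of all genes and those that were lower 6.7%, 7.82% and 4.81%. For the double against the PU.1 single mutant, 3 of 10, 4 of 10 and 2 of 9 were DE, beside 7.21%, 3.01% and 8.11%. Nothing is read from these counts, since 3 of the genes were chosen on such contrasts. Among the 7 other genes, 1, 2 and 3 were DE in PU.1 cKO and 3, 4 and 3 in PU.1 SpiB DKO.

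In SpiB KO, 2 of 10 genes were DE in naive cells, Lair1 higher and Cd22 lower, beside 6.35% of all genes, 3.46% higher and 2.9% lower. None was DE by edgeR after CD40L + IL-4, beside 0.11% of all genes, and 1 (Nfam1) had an unadjusted p under 0.05. None was DE by edgeR after LPS + IL-4, beside 2.29%, and 2 (Cd22 and Siglecg) had an unadjusted p under 0.05. Of these, Cd22 also passed the adjusted threshold (edgeR adjusted p = 0.0944), but its log2 fold change of 0.48 (SE 0.12) was below a 1.5-fold change. DESeq2 and voom also called 0 in both cultures. The share of all genes past an unadjusted p of 0.05 is not given here, so nothing is read from those counts.

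Among the genes with tests, the double mutant departed from the sum of the single mutants for Siglecg and Cd72, both after CD40L + IL-4. Siglecg lay below its sum, and Cd72 lay above it by a call that was not stable. Of the 4 genotypes only SpiB KO had no Cre, so at every stage the interaction also holds an effect of Cre. In naive cells it also holds the incomplete loss of the floxed Spi1 exon in PU.1 SpiB DKO. These parts cannot be told apart from a joint effect of PU.1 and SpiB. The interaction passed an adjusted p of 0.15 for 2 of 10 genes in naive cells (0.936% of all genes) and for 4 of 10 after CD40L + IL-4 (1.17%). Nfam1 and Pirb in naive cells, and Nfam1 and Lilrb4 after CD40L + IL-4, were among the genes chosen on the loss of PU.1, so their part of the count is a description. For Nfam1 the sum of the single log2 fold changes after CD40L + IL-4 was -7.48 and the value in PU.1 SpiB DKO was -4.32. For Lilrb4 these were -5.12 and -0.59, and for Cd72 -2.28 and -0.93. Siglecg went beyond its sum, with -0.60 and -3.03. The interaction of Cd72 was 1.35 (edgeR adjusted p = 0.133), and it was lost in 7 of the 8 fits that left out 1 library. After LPS + IL-4 the count was 0 of 9 in edgeR (1.48% of all genes). At an unadjusted p under 0.05 there were 3 genes, Nfam1, Lilrb4 and Siglecg. The first 2 were chosen on the loss of PU.1, so their part is a description. The share of all genes past that unadjusted p is not given here. In that culture deviations of same-numbered libraries correlated, but the main fit did not use replicate numbers. The fit with the replicate block called 2, one of them Siglecg at -0.86 (edgeR adjusted p = 0.0209, against 0.188 in the main fit). DESeq2 and voom each called 1. Of all 12445 genes, the block called 1284, DESeq2 376 and voom 208, against 184 in the main fit.

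**Figure D5:**
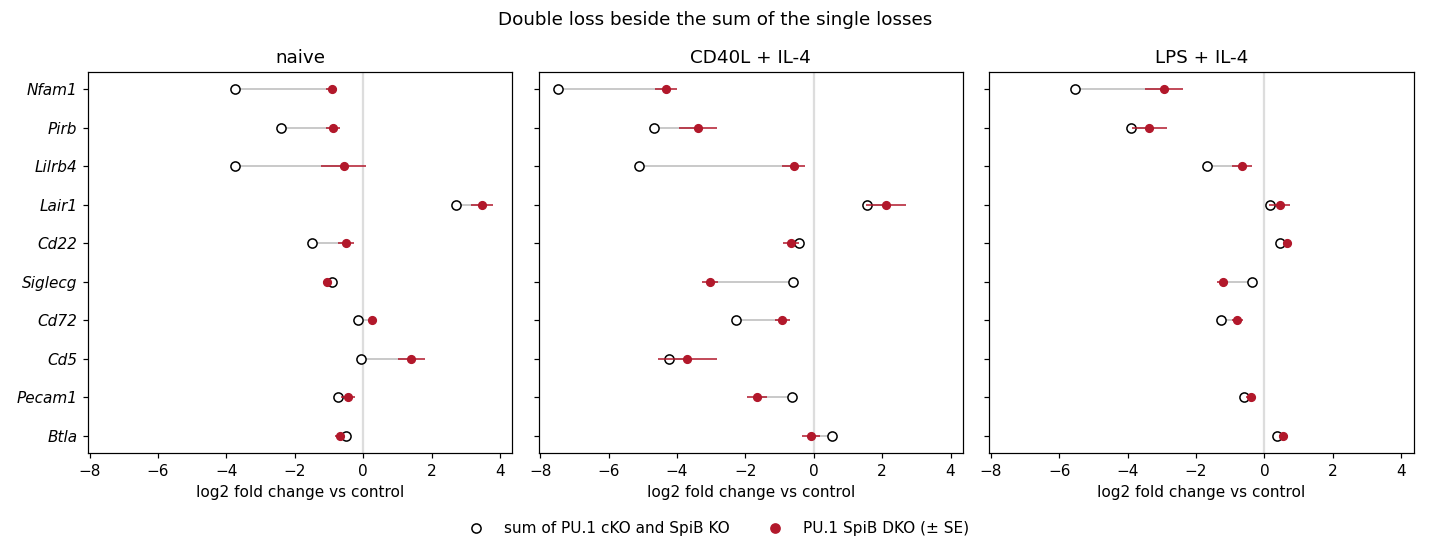
Log2 fold change of each receptor gene in PU.1 SpiB DKO (filled, with its standard error) beside the sum of those in PU.1 cKO and SpiB KO (open), with a panel for each stage. After CD40L + IL-4, Lilrb4 stood at -0.59 against a sum of -5.12 and Siglecg at -3.03 against a sum of -0.60. SpiB KO had no Cre, and naive PU.1 SpiB DKO cells kept part of the floxed Spi1 exon.

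Other genes of these pathways were taken from 3 lists. Of 45 other inhibitory and paired receptors, 28 were tested in naive cells, and 7 rose and 3 fell in PU.1 SpiB DKO, beside 7.39% and 6.7% of all genes. The lowest adjusted p-values were those of Sirpa, at 76.9 and 91.5 CPM against 12.8 and 12.0 CPM in control (2.76 on the log2 scale), Clec12a (2.32) and Lag3 (2.52). Markers of other cells were higher in the same libraries than in control. Of the pDC markers 10 of 10 were DE and higher, of conventional dendritic cell markers 3 of 5 tested, of macrophage and monocyte markers 4 of 9 tested, of T cell markers 4 of 9 (and 1 lower) and of NK cell markers 1 of 5, the last at a summed 94.3 to 158 CPM against 43.7 to 98.8 CPM in control, which overlapped. Their part in the levels of Sirpa, Clec12a and Lag3 was not tested. After CD40L + IL-4, 2 of 23 rose and 8 fell, beside 5.84% and 7.82% of all genes. Fcgr2b, the inhibitory Fc receptor of B cells, was at 12.1 and 21.2 CPM against 44.0 and 60.1 CPM in control (-1.64, edgeR adjusted p = 0.00165). Fcrla fell by 2.33, and Tigit rose by 3.55. After LPS + IL-4, 4 of 22 rose and 5 fell, beside 8.76% and 4.81% of all genes. Fcgr2b fell there as well, by 1.05, while Lax1 rose by 2.18 and Pdcd1 by 1.46. T cell markers summed to 218 to 233 CPM in PU.1 SpiB DKO and 67.5 to 76.1 CPM in control, with 3 of 4 tested DE and higher. Of the 12 T cell markers, 2 were at 0 in both PU.1 SpiB DKO libraries and 5 in both control libraries. NK cell markers summed to 9.88 to 11.9 CPM and 1.13 to 1.21 CPM. The part of such cells in the levels of Tigit and Pdcd1 was not tested. The median log2 fold changes were 0.16, -0.48 and 0.14, beside 0.0022, 0.0016 and 0.0076 over all genes.

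The 24 genes of phosphatases, kinases, adaptors and ITAM partners were all tested. In PU.1 SpiB DKO 6 rose and 2 fell in naive cells, 3 rose and 7 fell after CD40L + IL-4, and 7 rose and 1 fell after LPS + IL-4, against the same shares of all genes (7.39% and 6.7%, 5.84% and 7.82%, 8.76% and 4.81%). After CD40L + IL-4, Ptpn6, the gene of SHP-1, was at 198 and 196 CPM against 471 and 429 CPM in control (-1.19, edgeR adjusted p = 0.000535). Lyn was at 94.0 and 63.8 CPM against 182 and 203 CPM (-1.29, edgeR adjusted p = 0.00321). Fcer1g, the ITAM adaptor with which activating paired receptors associate, rose at all 3 stages, by 2.68, 3.46 and 4.65. In the naive libraries it stood beside the higher markers of pDC and the other cells named for Sirpa. In the cultures it stood beside the higher summed T and NK cell markers given above, while summed pDC and macrophage markers were lower than in control. Summed conventional dendritic cell markers were higher after CD40L + IL-4 (13.1 to 13.4 against 6.05 to 9.32 CPM in control). After LPS + IL-4 they were lower (9.41 to 9.73 against 29.1 to 31.8 CPM). The part of these cells was not tested. In naive cells Fyn rose by 1.17 and Ptpn22 by 1.20, and after LPS + IL-4 Ptpn22 rose by 0.86 and Dok2 by 1.83. The median log2 fold changes were -0.17, -0.33 and 0.34.

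Of 12 ligands of these receptors and sialic acid enzymes, 0 were DE in naive PU.1 SpiB DKO cells, 2 rose and 2 fell after CD40L + IL-4, and 4 rose after LPS + IL-4, again beside 7.39% and 6.7%, 5.84% and 7.82%, and 8.76% and 4.81% of all genes. Cd24a, whose product binds Siglec-G, was at 527 and 673 CPM against 123 and 135 CPM in control after CD40L + IL-4 (2.22, edgeR adjusted p = 0.000218), and it rose by 1.03 after LPS + IL-4. After CD40L + IL-4, H2-K1, a class I MHC gene, rose by 0.64 and Cd38, a partner of Pecam1, fell by 1.04. After LPS + IL-4, Cmah, which makes the sialic acid preferred by mouse CD22, rose from 16.3 and 12.2 CPM to 90.6 and 68.5 CPM (2.49), and Sema4d, the ligand of Cd72, rose by 1.10. The median log2 fold changes were 0.012, 0.19 and 0.28.

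The pattern of each gene over the 24 libraries was compared with those of 9746 genes with a mean of at least 5 CPM, as a description by Pearson's r of log2 CPM. The libraries share stage and genotype, so r reflects both. Nfam1 was most like Myo1f (0.958) and Bmyc (0.95), and Btla most like Zfp740 (0.991) and Pcmtd2 (0.988). Fam169b (0.968) was among the genes most like Cd72. Lair1 was most like Notch3 (0.975) and Dntt (0.973), and Siglecg most like March1 (0.958) and Lsp1 (0.951). Pirb was most like Ago4 (0.952) and Zfp516 (0.949), Pecam1 most like Plaur (0.962) and Ms4a4c (0.962), and Cd22 most like Agap2 (0.943) and Osbpl7 (0.918). Cd5 was most like Alox5ap (0.905) and Slc29a3 (0.899), and Lilrb4 had the weakest likeness, to Chml (0.869) and Wash (0.860). Among the 10 genes themselves, Nfam1 and Pirb were most alike (0.948), followed by Cd72 and Pecam1 (0.892).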

How the data were processed

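Reads had been aligned to GRCm38 with Subread and assigned to exons of RefSeq genes with featureCounts, and the authors deposited the raw counts per gene, without normalization, for 24 libraries. Versions are not given in the sources used here. The authors also deposited quantile-normalized log2 RPKM per library, for 13569 genes in naive and CD40L + IL-4 and separately for 12634 genes in LPS + IL-4 libraries. These served as a threshold on expression and for levels per length in control cells. The 517 entries with an Entrez ID but no symbol (0.162% of counts) stayed in the fits.

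Each stage (8 libraries) was fitted with edgeR 4.0.16 in R 4.3.3 (TMM, quasi-likelihood test, Benjamini-Hochberg adjustment over all genes), for genes that reached 0.5 CPM in 2 or more libraries. Control cells were compared over stages, and genotype effects between stages, in a fit of all 24 libraries. Standard errors were taken from the fold change and its F statistic. With 2 libraries against 2 an exact permutation test cannot go below a p of 0.333. Alternatives were voom with quantile normalization (limma 3.58.1), DESeq2 1.42.0, its size factors, no filter, other thresholds, the replicate block and leaving out each library. In simulated counts with 200 changed genes, edgeR recovered 89% in naive, 83.5% in the CD40L + IL-4 stage and 96.5% in the LPS + IL-4 stage, with 35, 42 and 14 false calls. Deviations of same-numbered libraries correlated at 0.386 to 0.514 in all 6 genotype pairs of LPS + IL-4. The main fits of every stage left replicate numbers out, and the replicate block was used only as an alternative. The labels do not state a pairing, and it was not shown in the other stages.

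The 10 genes and the 3 pathway and the marker lists were chosen with earlier results of these data known. The genes named are all 10, Spi1 and Spib, at most 3 DE genes per list and stage with the lowest adjusted p in PU.1 SpiB DKO, and the 2 genes most like each member. One gene that this rule names is not reported here. The marker genes named (Emr1, Csf1r, Lyz2, Cd14 and C1qa) and Gp49a were singled out after their values were seen. Promoters came from a RefSeq table of GRCm38.p6, positions from RefSeq and exon overlaps from GENCODE vM21.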

Additional observations from a re-analysis of the deposited data

Results flagged for a closer look

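The difference of a genotype effect between stages was tested in the fit of all 24 libraries for the 7 genes that were not chosen on their values in PU.1 cKO, and 15 differences had an edgeR adjusted p under 0.05. In differences with CD40L + IL-4, whose counts came in a table of their own, stage and table cannot be told apart. In differences of PU.1 SpiB DKO with naive cells, stage and the incomplete loss of floxed Spi1 there cannot be told apart either. The share of all genes past that p between CD40L + IL-4 and naive was 3.87% for the effect of PU.1 cKO and 9.32% for that of PU.1 SpiB DKO. Between LPS + IL-4 and naive it was 2.2% and 16.8%.

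The effect of PU.1 cKO on Cd72 was lower than in naive cells by -1.89 after CD40L + IL-4 and -1.09 after LPS + IL-4 on the log2 scale, and that of PU.1 SpiB DKO by -1.18 and -1.13. The effect of PU.1 SpiB DKO on Siglecg was lower after CD40L + IL-4 than in naive cells, by -1.97 (SE 0.26, edgeR adjusted p = 4.3e-05), and 1.73 higher after LPS + IL-4 than after CD40L + IL-4. For Pecam1 these differences were -1.21 and 1.19. For Cd5 they were -5.11 and 3.87, on few counts. The effect of PU.1 SpiB DKO on Cd22 after LPS + IL-4 was higher by 1.09 than in naive cells and by 1.25 than after CD40L + IL-4 (15.2% of all genes differed between the cultures). For Btla it was higher by 1.18 than in naive cells. The effect on Lair1 after LPS + IL-4 was lower than in naive cells by -3.47 in SpiB KO (1.83% of all genes) and by -3.12 in PU.1 SpiB DKO, beside the high pDC markers of the naive libraries without SpiB.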

How the results depend on the processing

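Of 63 fold changes of DE members followed over the alternatives, none changed sign. Compared with the values given above, 728 were the same, 36 were no longer called and 10 moved by more than a standard error. Lost calls included those of Cd22, of Pecam1 in PU.1 cKO after CD40L + IL-4 and of the interaction of Cd72.

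Counts of members called moved by over 1.5 times as follows, with the number of all genes called in parentheses. That number changed with the setting too. Nothing about the members is therefore read from these counts or from those with 1 library left out. Without the RPKM threshold, which lets low genes be called, PU.1 SpiB DKO after CD40L + IL-4 had 8 instead of 5 (2331 instead of 1738 of 12721). In naive cells PU.1 cKO had 5 instead of 3 (1342 instead of 1050 of 12500). The double against the PU.1 single mutant had 5 instead of 3 there (1614 instead of 901). Without the filter on low counts, SpiB KO after CD40L + IL-4 had 1, Nfam1 (149 of 17211). The interaction then had 4 in naive cells (1088 of 17289) and 3 in LPS + IL-4 cells (779 of 18097). At an adjusted p under 0.05 naive SpiB KO and the naive interaction had 1 each (436 and 41 of 12500). With voom, naive SpiB KO had 1 (680 of 12500). The interaction had 2 after CD40L + IL-4 (75 of 12721) and 1 after LPS + IL-4 (208 of 12445). The LPS + IL-4 interaction had 1 in DESeq2 (376 of 12445), 1 in the fit of 24 libraries (84 of 13684) and 2 with the replicate block (1284 of 12445). The naive one had 1 in the fit of 24 libraries (336 of 13684). With the replicate block it had 6 (1414 of 12500, against 117 in the main fit). Pairing was not shown in naive cells, since r passed 0.1 in 5 of 6 pairs (0.0918 to 0.25) and in 4 of 6 after CD40L + IL-4 (-0.0702 to 0.266). The block moved no other count by over 1.5 times. The cause of the other shifts was not tested.

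With 1 library left out, which leaves a group with 1 library assumed to vary like the others, counts were 2 to 5 (naive), 3 to 4 (CD40L + IL-4) and 3 to 4 (LPS + IL-4) in PU.1 cKO, 1 to 2, 0 to 0 and 0 to 2 in SpiB KO, and 4 to 7, 4 to 6 and 2 to 5 in PU.1 SpiB DKO. For the double against the PU.1 single mutant they were 3 to 4, 3 to 6 and 1 to 3, and for the interaction 1 to 3, 2 to 4 and 0 to 1. The high count of naive PU.1 cKO (5) came without control replicate 1, and the low count of PU.1 SpiB DKO after LPS + IL-4 (2) without PU.1 SpiB DKO replicate 1 or control replicate 2. Also past 1.5 times were SpiB KO in naive cells (1, without control or SpiB KO replicate 2) and LPS + IL-4 (2, without control replicate 1), the double against the PU.1 single mutant in LPS + IL-4 (1, without PU.1 SpiB DKO replicate 1), and the interaction after CD40L + IL-4 (2, without PU.1 cKO or PU.1 SpiB DKO replicate 2), in LPS + IL-4 (1, without either control library or PU.1 cKO replicate 1) and in naive cells (1, without either library of PU.1 cKO or SpiB KO or PU.1 SpiB DKO replicate 1). In control cells the counts were 6 to 7, 9 to 9 and 5 to 6.

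The smallest change detectable in low genes such as Cd5 was not tested.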
